A study of Mus musculus with 4 samples.

Results

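The IL-6 family is described here by 10 genes in mouse embryonic fibroblasts (MEFs), cells grown out of embryos. They are the ligands Il6, Lif, Il11 and Clcf1, the receptor chains Il6ra, Il6st, Lifr and Osmr, the transcription factor Stat3 and the feedback inhibitor Socs3. They were chosen by gene symbol, with earlier results of these data known. All probe sets naming 1 gene with one of these symbols were taken. All 10 were found, out of 18193 genes on the array, with 26 probe sets.

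The cells were MEFs of C57BL/6 background that were either wild type (FAN +/+) or lacked FAN (FAN -/-). FAN, the product of Nsmaf, is an adaptor that binds the p55 TNF receptor. Untreated cells spent 24 h in DMEM without serum, and treated cells 8 h in the same medium followed by 16 h with tumour necrosis factor (TNF) at 50 ng/ml, so all 4 conditions were without serum. Each condition was measured on 1 Affymetrix whole-genome mouse array from total RNA. The part of Nsmaf that was deleted, the number of embryos and the number of cell preparations are not given in the sources used here. The arrays were grouped by title, and the genotype entry of 2 of the 4 samples goes against the title. By those entries both untreated arrays would be wild type and both TNF arrays FAN -/-, and genotype and TNF could then not be told apart.

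Cytokines of this family signal through receptor complexes that share gp130, the product of Il6st. IL-6 and IL-11 each bind their own alpha chain and then pair gp130 with itself, whereas LIF, CLCF1 and oncostatin M pair gp130 with the LIF or oncostatin M receptor. JAK kinases bound to these chains phosphorylate STAT3, which induces Socs3, and SOCS3 in turn binds gp130 and damps the signal. In fibroblasts, Il6 and Lif are known as genes that inflammatory stimuli switch on through NF-kB, AP-1 and C/EBP factors.

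The promoters of 3 of these genes are shown because Il6 and Lif had the highest TNF responses of the 10 genes and Socs3 the lowest, in each genotype. Each runs from 250 bases before to 50 bases after the RefSeq start (build GRCm38.p6), 5′ to 3′ on the gene's strand. Capitals mark matches, on either strand, to the NF-kB consensus, to TGANTCA (the AP-1 element) or to TTCNNNGAA (a STAT element). Il6 lies at chr5:30012864-30013163 on the plus strand, Lif at chr11:4257318-4257617 on the plus strand and Socs3 at chr11:117969317-117969616 on the minus strand.
Il6: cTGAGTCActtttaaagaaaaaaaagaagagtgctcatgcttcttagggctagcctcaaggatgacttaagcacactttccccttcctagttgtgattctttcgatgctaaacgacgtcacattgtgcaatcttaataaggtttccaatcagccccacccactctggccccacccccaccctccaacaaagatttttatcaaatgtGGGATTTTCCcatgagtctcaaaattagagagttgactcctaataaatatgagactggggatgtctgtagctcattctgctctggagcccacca
Lif: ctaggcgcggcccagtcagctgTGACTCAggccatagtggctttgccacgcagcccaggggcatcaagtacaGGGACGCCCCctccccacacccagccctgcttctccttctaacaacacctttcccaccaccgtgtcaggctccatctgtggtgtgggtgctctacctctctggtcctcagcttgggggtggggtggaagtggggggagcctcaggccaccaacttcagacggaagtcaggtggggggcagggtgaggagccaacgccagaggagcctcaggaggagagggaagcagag
Socs3: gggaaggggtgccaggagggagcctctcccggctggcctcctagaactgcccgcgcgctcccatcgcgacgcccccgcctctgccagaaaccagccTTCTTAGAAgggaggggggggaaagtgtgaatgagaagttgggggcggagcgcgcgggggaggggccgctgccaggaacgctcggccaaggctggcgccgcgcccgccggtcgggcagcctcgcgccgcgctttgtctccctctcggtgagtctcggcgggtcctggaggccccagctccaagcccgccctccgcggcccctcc

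Il6 held 1 NF-kB match, beginning at position -44 from the start, and 1 TGANTCA match at -249. Lif held the same pair, at -178 and -228. The Socs3 window held neither, but it held a TTCNNNGAA match at -154. Promoters were available for 9 of the 10 genes (11 windows, since Il11 and Lifr have more than 1), and Clcf1 was the one without. Among the 9, the NF-kB consensus occurred in 2 (Il6 and Lif), TGANTCA in 4 (Il6, Lif, Il11 and Osmr) and TTCNNNGAA in 1. Of all 32851 RefSeq promoter windows of this length, 8.46% held the NF-kB consensus, 7.81% TGANTCA and 8.30% TTCNNNGAA. No match overlapped another in the 3 windows shown. These are matches of letters and not measured binding.

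Values are the deposited log2 probe set values, and each gene's values are those of whichever of its probe sets had the highest mean. The median of all values (log2 6.27) served as a floor (49.2% to 50.5% of the probe sets of an array lay above it), and values under it were given no order. They were raised to it before a difference was taken, which makes a fold against the floor a lower bound. With 1 array per condition a difference has no replicate check and no p-value, and precision is limited by how few arrays there are. The arrays had medians between 6.211 and 6.296. Nsmaf read 8.95 and 8.55 on the untreated and TNF wild-type arrays against 7.91 and 7.48 on the FAN -/- arrays, which is the direction the titles give. The part that was deleted is not known here, and a probe set outside it need not follow the genotype.

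Markers of several cell types were read in the same RNA. All 10 fibroblast markers lay above the floor on every array. Of 9 macrophage and leukocyte markers 4 did (Csf1r, Lyz2, Fcer1g and Cd3e), while Ptprc, Itgam, Cd68, Adgre1 and Tyrobp lay under it on every array. Of 6 endothelial markers 2 lay above it (Kdr and Tek), and of 6 epithelial markers 3 did on all 4 arrays (Epcam, Krt8 and Krt19). The other endothelial markers (Pecam1, Cdh5, Tie1 and Emcn) and the epithelial markers Cdh1 and Krt18 lay under it throughout, and Cldn4 lay above it on 3 arrays. In such bulk RNA, fewer cells of a type and less RNA per cell cannot be told apart.

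**Figure D1:**
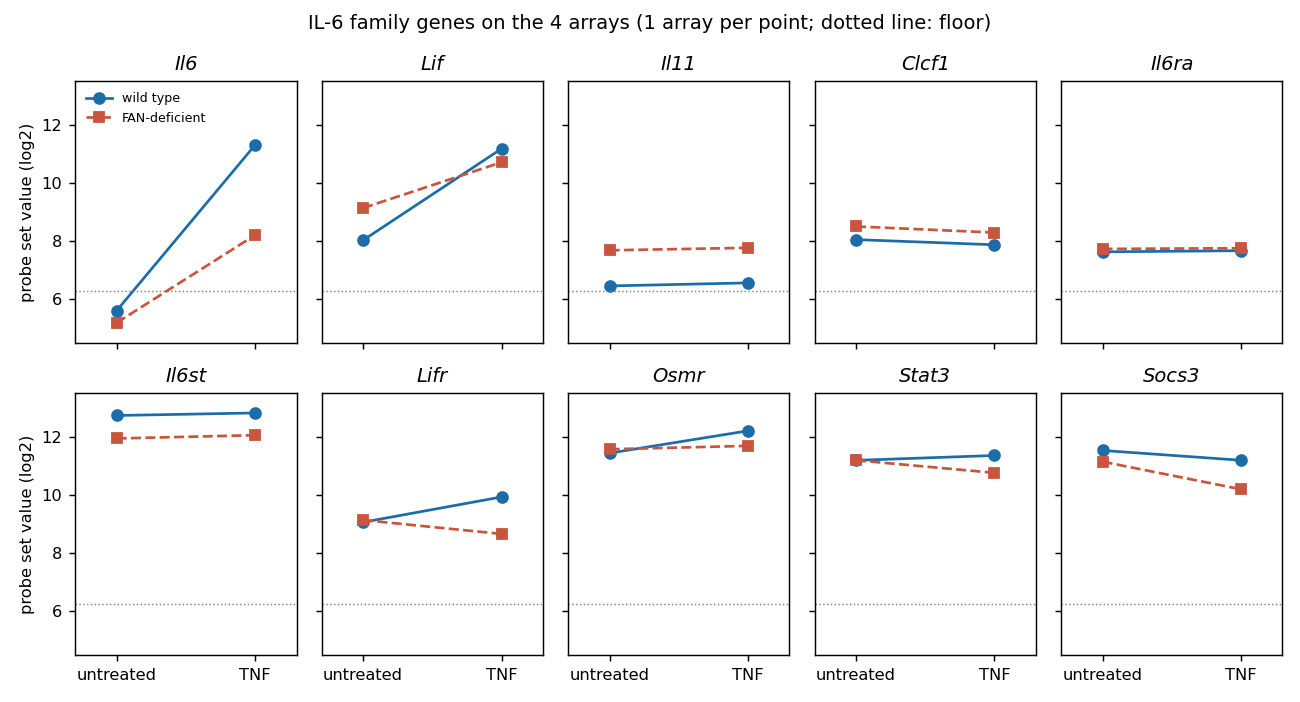
Deposited log2 values (vertical axis) of the 10 genes on the untreated and the TNF array of wild-type cells (blue circles) and FAN -/- cells (red squares); each point is 1 array, lines join arrays of a genotype, and the dotted line is the floor of 6.27. Il6 and Lif climb steeply from left to right, Il11 and Il6st run as separate level lines for the genotypes, and Lifr and Osmr part with TNF.

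With TNF, 2 of the 10 genes were at least 2-fold higher in wild-type cells, Il6 and Lif, against a background of 2.20% of 12224 genes. In FAN -/- cells the same 2 genes were at least 2-fold higher, against a background of 1.35%. None was 2-fold lower in either genotype, where the backgrounds were 1.92% in wild-type and 1.07% in FAN -/- cells. The median response of the 10 genes was 0.14 log2 in wild-type and 0.05 in FAN -/- cells, beside medians over all genes of -0.03 and 0.01.

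Il6 encodes the cytokine that gave the family its name, a product of activated fibroblasts and macrophages. Its values were 5.60 untreated and 11.30 with TNF in wild-type cells, and 5.19 untreated and 8.20 with TNF in FAN -/- cells. Both untreated values lay under the floor and both TNF values above it. Il6 was therefore at least 32.7-fold higher with TNF in wild-type cells and at least 3.82-fold higher in FAN -/- cells. This was place 6 from the top of all genes on the wild-type arrays and place 43 on the FAN -/- arrays. With TNF, the FAN -/- value was 8.56-fold lower than the wild-type value (-3.10 log2), place 20 from the bottom of all genes. Il6 has 1 probe set, so no other sequence on the array checks these values.

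Lif encodes leukaemia inhibitory factor, which acts through LIFR and gp130. Its values were 8.03 untreated and 11.17 with TNF in wild-type cells, and 9.13 untreated and 10.71 with TNF in FAN -/- cells. The untreated FAN -/- array was the higher of the untreated pair by 1.11 log2 (2.15-fold), and the TNF FAN -/- array the lower of the TNF pair by 0.47 (a difference of -0.47). TNF went with an 8.85-fold higher value in wild-type cells (3.15 log2, place 23) and a 2.97-fold higher value in FAN -/- cells (1.57 log2, place 69). The response in wild-type cells and the untreated genotype difference share the untreated wild-type array. The other Lif probe set read 5.21, 6.95, 5.57 and 6.36 in the order wild type untreated, wild type TNF, FAN -/- untreated, FAN -/- TNF, so its TNF values were again the higher ones, but its untreated values lay under the floor.

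Il11 and Clcf1, the remaining ligands, hardly differed between untreated and TNF arrays. Il11, whose product acts on stromal cells and on bone marrow progenitors, read 6.46 and 6.56 in wild-type cells without and with TNF, and 7.68 and 7.77 in FAN -/- cells. Its TNF responses were 0.10 and 0.09 log2, but both FAN -/- values lay above both wild-type values, which themselves lay close to the floor. Clcf1, a ligand of the CNTF receptor complex, read 8.05 and 7.87 in wild-type and 8.50 and 8.29 in FAN -/- cells. Its 3 probe sets gave wild-type responses from -0.44 to -0.08 and FAN -/- responses from -0.21 to 0.04. They did not share a direction between the untreated genotypes, where their differences ran from -0.23 to 0.45.

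**Figure D2:**
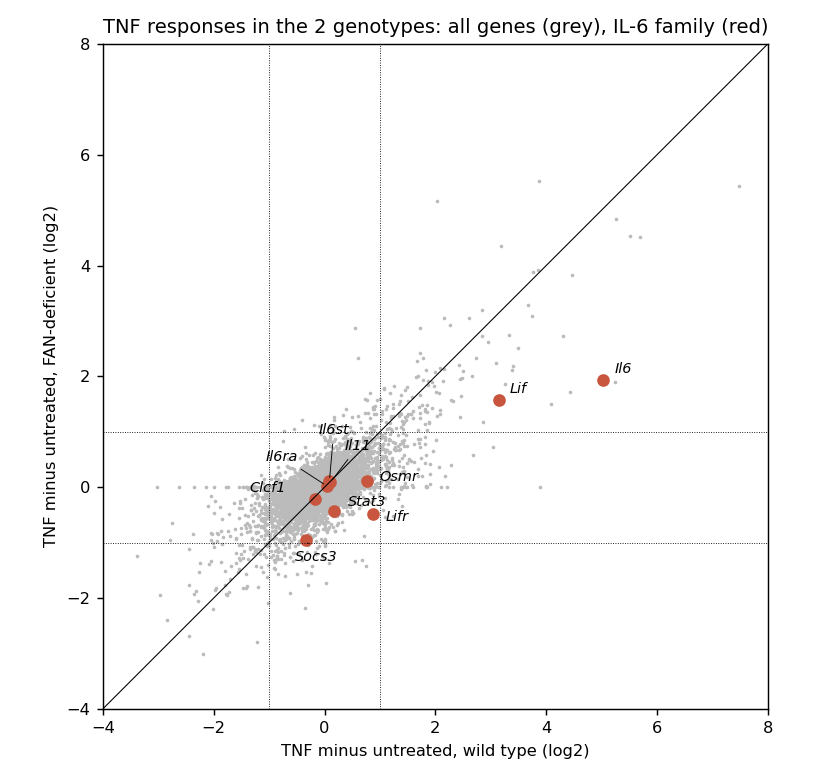
TNF response (TNF minus untreated array, log2) of wild-type cells on the horizontal and of FAN -/- cells on the vertical axis, for the 12224 genes above the floor on at least 1 array (grey) and the 10 IL-6 family genes (red); the diagonal marks equal responses and dotted lines a 2-fold difference. Il6 (5.03 and 1.93, both lower bounds) and Lif (3.15 and 1.57) stand far to the right and under the diagonal, and Lifr and Stat3 lie right of 0 and under 0.

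Among the receptors, Osmr and Lifr were higher with TNF on the wild-type arrays, while on the FAN -/- arrays Osmr was nearly level and Lifr lower. Osmr, the signalling chain for oncostatin M, read 11.44 and 12.20 in wild-type cells and 11.57 and 11.69 in FAN -/- cells. The wild-type TNF array was thus the highest of the 4, above the other 3. Its response was 0.77 log2 (1.70-fold) in wild-type and 0.12 (1.08-fold) in FAN -/- cells. Another Osmr probe set read 9.31, 10.35, 9.17 and 9.23 in the same order of arrays, which gives 1.04 and 0.06, and the remaining one lay under the floor on all arrays.

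Lifr, the signalling chain for LIF, read 9.06 and 9.93 in wild-type cells and 9.14 and 8.66 in FAN -/- cells. The untreated values lay close together, whereas the TNF values lay on either side of them. The response was 0.87 log2 higher in wild-type and -0.48 log2 in FAN -/- cells, and with TNF the FAN -/- value was 2.41-fold lower. The other 2 Lifr probe sets lay under the floor on all 4 arrays, so the opposite directions rest on 1 probe set.

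Il6st, the shared gp130 chain, was lower in FAN -/- cells whether or not TNF was present, and hardly differed with TNF. It read 12.73 and 12.82 in wild-type cells and 11.94 and 12.05 in FAN -/- cells, so both FAN -/- arrays lay under both wild-type arrays. All 4 of its probe sets showed this, with untreated differences from -1.21 to -0.79 and TNF differences from -1.32 to -0.76. Their TNF responses ran from 0.07 to 0.20 in wild-type and from 0.0014 to 0.20 in FAN -/- cells.

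Il6ra, the alpha chain that lets IL-6 bind gp130, showed little difference on any array, with 7.63 and 7.67 in wild-type and 7.73 and 7.75 in FAN -/- cells. Its other probe set read 7.04, 7.59, 7.61 and 7.28 in that order of arrays. That gives responses of 0.54 in wild-type and -0.33 in FAN -/- cells, so the 2 probe sets do not show the same pattern.

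Stat3 read 11.19 and 11.36 in wild-type and 11.19 and 10.76 in FAN -/- cells. The untreated arrays were level, and the FAN -/- TNF array was the lowest of the 4. A second well-measured Stat3 probe set read 11.12, 11.17, 11.03 and 10.71, again lowest on the FAN -/- TNF array. Another, with lower values, differed from both, as it read 7.74, 6.94, 7.78 and 7.16 and was thus lower with TNF in both genotypes. The remaining one lay under the floor.

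Socs3, the feedback inhibitor, had the lower value with TNF in both genotypes. It read 11.53 and 11.19 in wild-type and 11.14 and 10.19 in FAN -/- cells, so the FAN -/- TNF array was the lowest and the untreated wild-type array the highest. The response was -0.34 log2 (1.26-fold lower) in wild-type and -0.95 log2 (1.93-fold lower) in FAN -/- cells, place 149 from the bottom of all genes. All 3 Socs3 probe sets were lower with TNF, by -0.53 to -0.29 in wild-type and by -1.01 to -0.95 in FAN -/- cells.

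**Figure D3:**
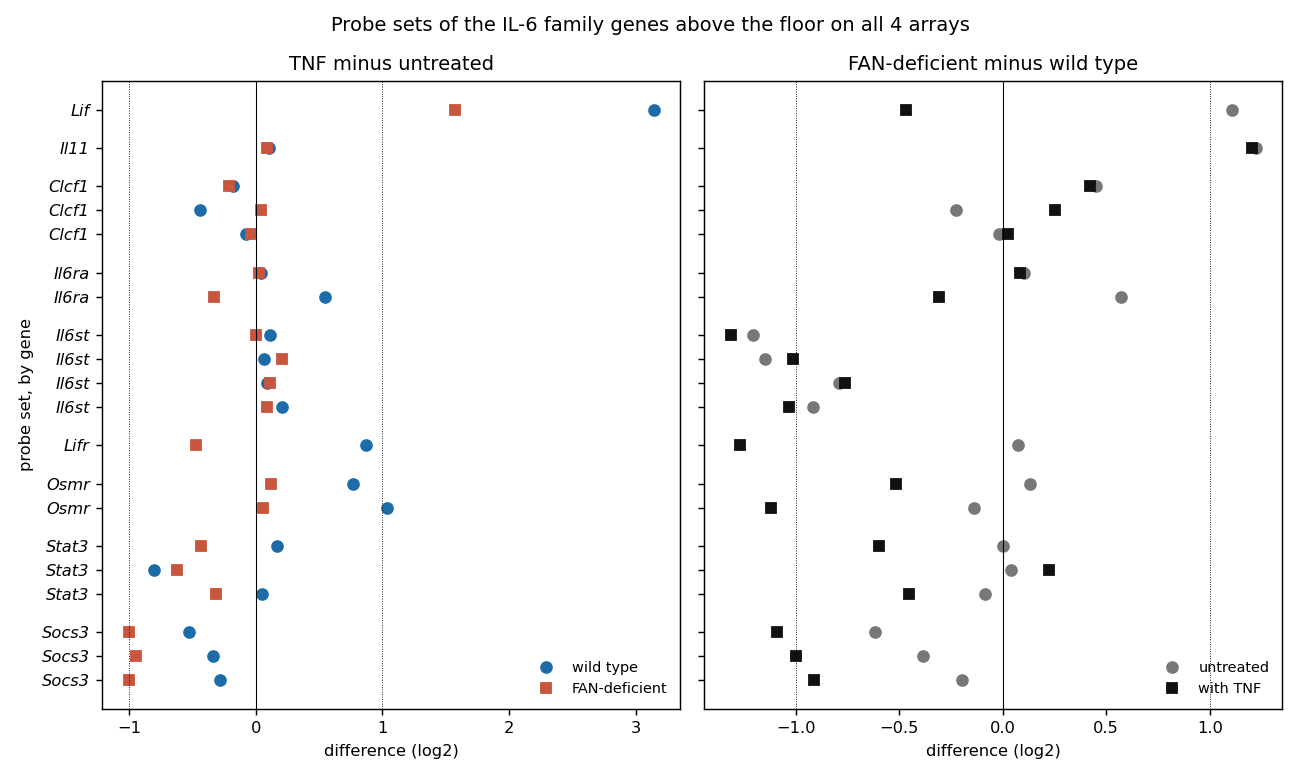
Differences (log2, horizontal axes) of the 20 probe sets of these genes that lay above the floor on all 4 arrays, 1 row per probe set; left, TNF minus untreated in wild-type (blue circles) and FAN -/- cells (red squares); right, FAN -/- minus wild type without (grey circles) and with TNF (black squares). Dotted lines mark 2-fold, and Il6 is not shown because it was under the floor untreated. The 4 Il6st rows lie left of 0 throughout the right panel and the 3 Socs3 rows left of 0 in both panels.

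The genotypes were next compared within each treatment. Untreated, 2 of the 10 genes were at least 2-fold higher in FAN -/- cells (Lif and Il11), where the background was 1.45%, and none was 2-fold lower, where it was 2.89%. With TNF, 1 was 2-fold higher (Il11, 2.31-fold; background 1.55%) and 2 were 2-fold lower (Il6 and Lifr; background 2.64%). Socs3 lay just outside that line, at -0.998 log2 and 1.997-fold lower. With TNF, 7 of the 10 genes had the lower value in FAN -/- cells and their median difference was -0.56 log2, beside 0.01 over all genes, of which 52.6% were higher in FAN -/- cells. Untreated, 2 of the 10 had the lower value and 7 the higher, and the median was 0.09, beside -0.03 over all genes, of which 43.8% were higher.

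The difference between the responses, FAN -/- minus wild type, was negative for 9 of the 10 genes, Il6st being the exception at 0.03, while 59.9% of all genes had a positive one. It was at least 2-fold (-1 log2 or lower) for 3 genes, Il6 (-3.10), Lif (-1.57) and Lifr (-1.34), with a background of 0.818% (Lifr was at -0.85 with the mean of its probe sets), and none was 2-fold the other way, where the background was 0.794%. The median was -0.61, beside 0.05 over all genes. The value for Il6 takes both untreated levels at the floor. Clcf1, Il11 and Il6ra lay so close to 0 (-0.03, -0.02 and -0.02) that with each array centred on its median they turned positive, which leaves 6 of the 10 negative. The 4 arrays leave no test of this difference.

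The test that the design allows comes from a limma fit with 1 term for TNF and 1 for genotype, their effects added. It has 1 residual degree of freedom, which holds the difference between the 2 responses, so a gene that responds unequally gets a large error, and its p-values speak of these arrays only. For TNF none of the 10 genes passed at an adjusted p under 0.05, with a background of 1.57% of 11817 genes rising and 1.14% falling. At an unadjusted p under 0.05 there were 3, Il6, Lif and Socs3, where 18.8% of all genes tested were. Lif had an effect of 2.36 ± 0.38 log2 (SE, adjusted p = 0.063), Il6 3.48 ± 0.74 (adjusted p = 0.105) and Socs3 -0.64 ± 0.17 (adjusted p = 0.15). With each array centred on its median all 3 passed (adjusted p = 0.0060 for Il6, 0.0016 for Lif and 0.026 for Socs3). That centring also turned the split of all calls from 57.9% to 43.9% rising.

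For genotype 2 of the 10 passed, and 4 lay at an unadjusted p under 0.05 (Clcf1 and Socs3 beside these 2), where 24.5% of all genes tested did. Il11 was higher in FAN -/- cells by 1.22 ± 0.10 log2 (limma, SE, adjusted p = 0.013), with a background of 2.94% of genes. Il6st was lower (-0.78 ± 0.07 log2, adjusted p = 0.016), with a background of 3.67%. Without the TNF term neither passed (adjusted p = 0.086 and 0.11). Under a floor at the 70th percentile of all values Il11 lay under the floor on every array and was not tested. The fibroblast markers Pdgfra, Dcn and Lum also fell with genotype, Lum from 12.75 and 13.42 in wild-type cells to 8.78 and 7.45 in FAN -/- cells. The other 7 of the 10 markers did not pass, and the summed linear signal of the list was 112400 and 112710 on the wild-type and 97278 and 84352 on the FAN -/- arrays. Whether this difference between the cultures had a part in the values of Il6st, Il11 or the TNF responses was not tested. The summed signal of the leukocyte markers was 758 and 1007 on the wild-type and 1563 and 1005 on the FAN -/- arrays. It was highest on the untreated FAN -/- array, where Lif was higher than in untreated wild-type cells. Lyz2 alone gave 237 and 347 of it on the wild-type and 778 and 310 on the FAN -/- arrays. The sum also holds Ptprc, Itgam, Cd68, Adgre1 and Tyrobp, which lay under the floor on every array. Any part of leukocytes in the Lif values was not tested.

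Other genes of the pathway were taken from lists of 63 genes, of which 55 have a probe set naming 1 gene here, 51 lay above the floor on at least 1 array and 50 entered the limma fit. With TNF 8 of the 50 rose and 2 fell, with limma backgrounds of 1.57% and 1.14%. By genotype 0 were higher and 6 lower in FAN -/- cells, with limma backgrounds of 2.94% and 3.67%. These backgrounds hold for each list below. Each listed gene is given by its probe set of highest mean, and its other probe sets were not compared. Ctf2, Cntf, Il27, Il11ra1, Il11ra2 and Nfkb1 were among the genes not analysed here.

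Of the other ligands, Ctf1, which encodes cardiotrophin 1, fell with TNF (-0.92 log2, adjusted p = 0.0498). It read 9.73 and 8.66 in wild-type and 9.01 and 8.25 in FAN -/- cells, the TNF value being the lower in each genotype. Osm itself, the ligand of the chain encoded by Osmr, stayed between 6.99 and 7.22, and Ebi3 and Il31 lay under the floor. Of the other receptors, Cntfr and Il27ra lay above the floor, with responses from 0.10 to 0.55, and neither passed.

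Among 9 kinases and adaptors of gp130 none passed for TNF. Jak2, a kinase bound to these receptors, came closest, at 9.02 and 10.51 in wild-type and 9.06 and 9.81 in FAN -/- cells (effect 1.12 log2, adjusted p = 0.077). By genotype Jak1 (-0.55 log2, adjusted p = 0.041) and Stat5a (-0.77 log2, adjusted p = 0.041) were lower in FAN -/- cells. Il6st was also lower, on all 4 of its probe sets, whereas Jak1 (3 probe sets) and Stat5a (2) are given by 1 each. The limma background was 3.67%. Jak1 is the kinase that gp130 signalling chiefly depends on. Of 2 proteases that shed the IL-6 receptor, Adam17 was lower in FAN -/- cells (-0.77 log2, adjusted p = 0.028) and Adam10 did not pass for either effect.

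Among 8 measured negative regulators other than Socs3, none passed for TNF or genotype. Of the relatives of Socs3 in that list, Cish had TNF responses of 0.41 log2 in wild-type and 0.52 in FAN -/- cells, Socs2 of 0.19 and 0.15, and Socs7 of -0.20 and 0.04. Socs1 had 0.30 in wild-type and at least 0.62 in FAN -/- cells, where its untreated value lay under the floor. Ptpn2, a phosphatase that acts on JAKs and STATs, read 9.92 and 10.70 in wild-type and 9.69 and 10.19 in FAN -/- cells (adjusted p = 0.077).

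Of 19 genes listed as STAT3 targets, 6 rose with TNF and 1, Fos, fell, with limma backgrounds of 1.57% and 1.14%. The 6 were Bcl3, Myc, Timp1, Lcn2, Saa3 and Ier3. Most of these are targets of NF-kB or other factors as well, so the list does not measure STAT3 alone. Bcl3, an IkB family protein, rose by 1.82 log2 (adjusted p = 0.016), from 7.90 to 9.55 in wild-type and from 7.07 to 9.05 in FAN -/- cells. Saa3, an acute-phase protein, rose by 4.70 log2 (adjusted p = 0.018). It read 10.11 and 13.98 in wild-type and 7.72 and 13.25 in FAN -/- cells, so the untreated FAN -/- array was the lowest. Its TNF response was 3.87 log2 in wild-type cells and larger, at 5.53, in FAN -/- cells (place 1 from the top of all genes). This difference of 1.66 log2 was not tested. Lcn2, which encodes the siderophore-binding lipocalin 2, rose by 1.91 log2 (adjusted p = 0.0098) and was lower in FAN -/- cells (-4.69 log2, adjusted p = 0.0019). Its untreated FAN -/- value lay under the floor, so both effects are lower bounds in size. With that value raised to the floor, the responses were nearly equal, at 1.94 log2 in wild-type and 1.89 in FAN -/- cells. The deposited values gave 1.94 and 2.79, so the small error behind these p-values depends on the floor. Hp, which encodes haptoglobin, did not pass. It read 7.46 and 10.49 in wild-type and 5.70 and 6.99 in FAN -/- cells, where the untreated value lay under the floor. With that value raised to the floor, the FAN -/- response of Hp minus the wild-type one was -2.31 log2. Of the 19 genes 1 (Saa3) had a difference of responses, FAN -/- minus wild type, of at least 1 log2, with a background of 0.794% of 12224 genes. In the other direction there was 1 (Hp) at -1 log2 or lower, with a background of 0.818%. The median response over the 19 genes was 0.74 log2 in wild-type and 0.53 in FAN -/- cells, beside the medians over all genes given above.

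Among 10 tested regulators of Il6 transcription and mRNA decay, Rela and Zc3h12a rose with TNF, with a limma background of 1.57%. Zc3h12a encodes Regnase-1, a nuclease that degrades Il6 mRNA. It read 7.36 and 8.95 in wild-type and 6.71 and 8.09 in FAN -/- cells (TNF effect 1.49 log2, adjusted p = 0.017), with the lower value in FAN -/- cells in both treatments (-0.75 log2, adjusted p = 0.041). Rela, the p65 subunit of NF-kB, rose by 0.75 log2 (adjusted p = 0.036), from 11.14 to 11.99 in wild-type and from 11.31 to 11.96 in FAN -/- cells. Nfkbiz, whose IkB-zeta protein is needed for full Il6 transcription, read 10.27 and 11.60 in wild-type and 10.67 and 11.42 in FAN -/- cells (adjusted p = 0.057). Cebpd, a C/EBP factor, had a response of 1.13 log2 in wild-type and 0.33 in FAN -/- cells, and Arid5a, which stabilises Il6 mRNA, at least 1.09 and 0.54; neither passed. Cebpb was lower in FAN -/- cells (-0.52 log2, adjusted p = 0.035) with equal TNF responses of 0.51 and 0.53. The median response of the 11 genes above the floor was 0.51 in wild-type and 0.33 in FAN -/- cells.

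**Figure D4:**
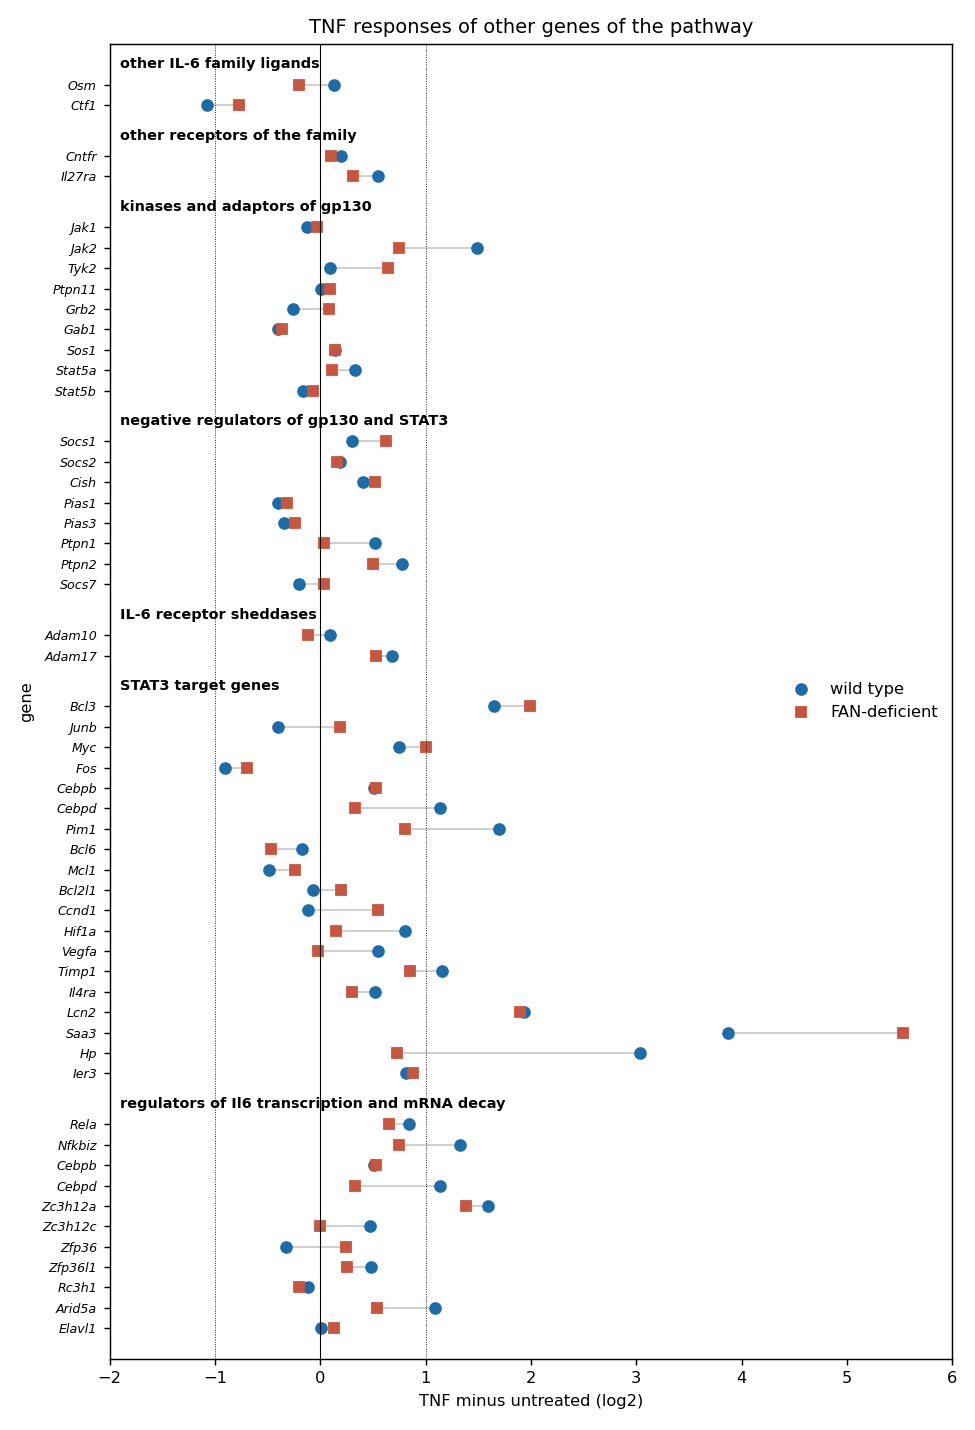
TNF response (TNF minus untreated array, log2, horizontal axis) of the other pathway genes above the floor on at least 1 array, by list, in wild-type (blue circles) and FAN -/- cells (red squares), 1 array against 1; dotted lines mark 2-fold, and Cebpb and Cebpd appear in both of the last lists. Most kinases, adaptors and negative regulators lie between the dotted lines, while Saa3, Hp, Lcn2 and Bcl3 lie far to the right in at least 1 genotype; the FAN -/- responses of Lcn2, Hp and Socs1 and the wild-type responses of Arid5a and Zc3h12c are lower bounds.

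The genes with the most similar profile over the 4 arrays were found by the Euclidean distance between values centred on each gene's mean, among 12224 genes, with values under the floor raised to it. For Il6 they were Ccl9, Gbp6, U90926, Cfb and Ifitm1, at distances from 0.45 to 1.22 log2. Ccl9, a CC chemokine, read 6.52 and 10.96 in wild-type and 6.23 and 7.99 in FAN -/- cells. For Lif they were Ifi47, Tnfaip2, Cxcl16, Ccl8 and Slfn2, at 0.29 to 0.83. Ifi47, an interferon-inducible GTPase, shared with Lif the higher untreated and lower TNF value in FAN -/- cells, reading 7.56 and 10.82 in wild-type and 8.39 and 10.26 in FAN -/- cells. For Socs3 they were Rin2, Fzd1, Fam13c, Cyp39a1 and Plekhh2, at 0.17 to 0.23. Fzd1, a Wnt receptor, read 11.11 and 10.97 in wild-type and 10.89 and 9.79 in FAN -/- cells. All these profiles come from the same 4 arrays.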

How the data were processed

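Total RNA of the 4 cell samples was measured on 1 Affymetrix array each. The values are the log2 probe set values the authors deposited. MAS5 is named, with no version, in the submitters' processing notes, while how arrays were normalized to each other is not given. Of 45101 probe sets, 34945 named 1 gene, 932 named several and 9160 had none listed; 34741 of the named ones matched RefSeq by Entrez ID. A gene was its probe set of highest mean. Lower values were raised to a floor, the 50th percentile over the table (log2 6.27), which 12224 genes exceeded somewhere. Differences were taken between single arrays, with 2-fold (1 log2) as the threshold. The additive fit of TNF and genotype used limma 3.58.1 (R 4.3.3) with eBayes and an intensity trend. It covered the 11817 genes exceeding the floor on 2 or more arrays, with Benjamini-Hochberg adjustment over all of them and a threshold of 0.05. The fit was tried on simulated data with equal TNF responses in both genotypes and no floor. That does not check genes with unequal or floored responses. Whether the arrays stem from separate preparations is not stated in the labels. The error behind the p-values is the difference between the 2 TNF responses on these arrays, moderated over all genes. It does not measure a spread between cultures. The genes named beside the 10 and Nsmaf were, of each list, up to 4 with the largest difference of at least 1 log2, and the 5 nearest profiles of Il6, Lif and Socs3; the remaining list genes, such as Socs1, Socs2, Socs7, Cish, Ptpn2, Adam17, Adam10, Jak1, Stat5a, Rela, Cebpb, Osm, Cntfr, Il27ra, Myc, Timp1, Ier3 and Fos, were chosen with their values in view. The 10 genes and the lists were chosen with earlier results of these data known. Other floors, scalings, probe set rules and model terms were tried.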

Additional observations from a re-analysis of the deposited data

Results flagged for a closer look

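Of the 10 genes and the listed genes, 74 lay above the floor on all 4 arrays, and 21 of them (28.4%) had TNF responses of opposite signs in the 2 genotypes, against 32.9% of all 10985 such genes. The difference between the responses was not tested, and many of these values are small. Among the 10 genes, Lifr (0.87 log2 in wild-type and -0.48 in FAN -/- cells, difference -1.34) and Stat3 (0.17 and -0.43, difference -0.60) were of this kind. With the mean of all probe sets Stat3 had the lower value with TNF in both genotypes (-0.09 and -0.31), and the Lifr difference was -0.85. In 10 more genes the wild-type response was positive and the FAN -/- response negative. The differences, FAN -/- minus wild type, were -1.9983 for Lum, -1.87 for Lyz2, -1.27 for Csf1r, -0.98 for Dcn, -0.57 for Vegfa, -0.36 for Pdgfrb, -0.33 for Osm, -0.32 for Epcam, -0.29 for Cd3e and -0.21 for Adam10. In 9 genes the signs were the other way round, with differences of 0.66 for Ccnd1, 0.59 for Junb, 0.57 for Zfp36, 0.54 for Krt19, 0.34 for Grb2, 0.27 for Bcl2l1, 0.24 for Socs7, 0.11 for Krt8 and 0.0086 for Fn1.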

How the results depend on the processing

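No paired analysis was possible because each condition has 1 array and the labels carry no replicate numbers, and leaving out an array leaves no residual degrees of freedom. No value of the 10 genes past a threshold changed sign under any alternative run. With the floor at the 70th percentile, fewer genes are tested. There 1 of the 10 genes (Lif) was 2-fold higher in the FAN -/- response, as were 111 of 8688 genes. Between untreated genotypes 1 (Lif) was 2-fold apart, higher in FAN -/- cells, as were 103 of 8688 genes. For TNF 1 (Lif) passed limma, with 233 of 8189 genes rising and 225 falling. For genotype 1 (Il6st) passed, with 330 genes higher and 415 lower. With log2(linear value + 16) and no floor, 2 of the 10 (Il6 and Lif) passed for TNF, with 253 of 11817 genes rising and 212 falling. With each array centred on its median, 3 of the 10 (Il6, Lif and Socs3) passed for TNF, with 404 genes rising and 516 falling, and by genotype 3 of the 10 passed (Socs3 added, adjusted p = 0.011) and 526 genes were higher and 970 lower; the cause was not tested. Without the genotype term, which is also the fit if the genotype entries rather than the titles are right, limma called 0 genes rising and 0 falling with TNF (450 and 434 at an unadjusted p under 0.05). Without the treatment term 0 of the 10 passed for genotype, with 4 genes higher and 6 lower. Lif passed for TNF in 3 of 9 alternatives (adjusted p from 0.0016 to 0.39), Il6 in 2 (0.0060 to 0.63) and Socs3 in 1 (0.026 to 0.78). For genotype Il11 passed in 7 of 8 (0.00056 to 0.086) and Il6st in 8 of 9 (0.00094 to 0.11). With the mean of all probe sets of a gene, Il6st was 2-fold lower in FAN -/- cells in both treatments (-1.02 and -1.03 log2), Lif was no longer 2-fold higher untreated (0.73), and Lifr was no longer 2-fold lower with TNF (-0.78) or 2-fold apart in its responses (-0.85). Socs3 passed the 2-fold line with TNF under centring (-1.03). Untreated Il6 lay under the floor, so signal over background limits its folds to lower bounds.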
